A study of Mus musculus with 9 samples.

Results

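The 10 genes described here are the myogenic regulators Pax7, Myf5, Myod1, Myog and Myf6, the fusion gene Mymk, the adhesion genes Ncam1 and Cdh15, and the acetylcholine receptor subunits Chrna1 and Chrng, taken by name from the array. All 10 of 10 were found among the 30120 genes that have a transcript cluster (the array's gene-level probe group) with 1 gene symbol, and each had 1 such cluster. RNA came from the quadriceps of 9 mice at 8 weeks of age, each hybridised unpooled to its own Clariom D array, and the strain was C57BL6/C57BL10. All mice carried mdx, the mutation that removes dystrophin, and MR flox/flox, the mineralocorticoid receptor alleles that Cre can delete. The 3 Cre-/mdx controls (2 male, 1 female) were littermates without Cre. The 3 MCK-MRcko/mdx mice (1 male, 2 female) carried MCK-Cre, which is driven by the muscle creatine kinase promoter and deletes MR in myofibers. The 3 LysM-MRcko/mdx mice (2 male, 1 female) carried LysM-Cre, which is driven by the lysozyme M gene and deletes MR in myeloid cells. Neither Cre is directed to satellite cells. The values are log2 signals, in which a difference of 1 is a 2-fold change.

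Skeletal muscle regenerates from satellite cells, stem cells beneath the basal lamina of each fiber. Pax7 marks these cells, Myf5 and Myod1 are expressed as they become myoblasts, and Myog drives the myoblasts into differentiation. Differentiating myoblasts then make the membrane protein myomaker, the product of Mymk, and fuse into new fibers. Young fibers carry embryonic sarcomere proteins, neural cell adhesion molecule and the fetal form of the acetylcholine receptor until they mature and are innervated. In dystrophic muscle this program runs repeatedly, since fibers without dystrophin degenerate and are replaced. In RefSeq (GRCm38.p6) Mymk lies at chr2:27061636-27072161 and Ncam1 at chr9:49502129-49799393, and the regulator genes Myf5 (chr10:107482908-107486927) and Myf6 (chr10:107492848-107494723) are neighbors.

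The myogenic regulators bind the E-box, a short DNA motif with the letters CANNTG. The RefSeq promoter table (GRCm38.p6) held windows for 6 of the 10 genes, Pax7, Myf5, Myog, Cdh15, Chrna1 and Chrng. The 250 bases before the annotated start of Myog, Chrna1 and Chrng are printed, because Myog and Chrna1 separated LysM-MRcko/mdx mice from the controls and Chrng belongs to the same receptor as Chrna1. E-boxes are in capitals.
Myog promoter, chr1:134289754-134290003, plus strand: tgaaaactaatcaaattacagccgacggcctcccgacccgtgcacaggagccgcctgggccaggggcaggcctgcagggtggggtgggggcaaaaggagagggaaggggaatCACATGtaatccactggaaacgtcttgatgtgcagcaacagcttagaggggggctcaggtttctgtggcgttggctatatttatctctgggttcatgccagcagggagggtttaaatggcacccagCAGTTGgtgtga
Chrna1 promoter, chr2:73580339-73580588, minus strand: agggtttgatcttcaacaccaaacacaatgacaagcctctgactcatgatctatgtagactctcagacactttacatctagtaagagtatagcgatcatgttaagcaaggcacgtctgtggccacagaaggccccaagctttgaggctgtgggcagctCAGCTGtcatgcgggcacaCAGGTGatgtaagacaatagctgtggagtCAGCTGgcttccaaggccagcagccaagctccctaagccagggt
Chrng promoter, chr1:87205561-87205810, plus strand: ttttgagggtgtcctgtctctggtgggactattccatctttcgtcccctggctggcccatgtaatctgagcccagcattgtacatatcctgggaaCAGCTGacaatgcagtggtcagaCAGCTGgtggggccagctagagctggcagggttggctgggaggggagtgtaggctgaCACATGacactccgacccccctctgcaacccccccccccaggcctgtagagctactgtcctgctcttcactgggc
The Myog window had 2 E-boxes, which begin 138 and 12 bases before the start. It also held the run CTATATTTAT 64 bases before the start, which differs by 1 letter from the motif searched for MEF2, a partner of the myogenic regulators. The Chrna1 window had 3 E-boxes, at 92, 73 and 44 bases, and those at 92 and 44 bases read CAGCTG. The Chrng window also had 3, at 155, 132 and 75 bases, of which those at 155 and 132 bases read CAGCTG. Cdh15 had 3 E-boxes in its window, and Pax7 and Myf5 had 0. Over all 32851 promoter windows of the same length, searched on both strands, 66.2% held an E-box, 31.8% held 2 or more, 12.2% held 3 or more, and 1.26% held 2 or more copies of CAGCTG. The palindromic steroid receptor element, the kind of site that MR binds, was found in 0 of the 6 windows, beside 0.00913% of all windows. Its shorter core AGAACA was also found in 0 of the 6, beside 16.1% of all windows. At such shares, 0 of 6 windows of this length does not show that these genes lack MR sites, and Mymk had no window. A match describes the letters and is not evidence of binding.

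In LysM-MRcko/mdx quadriceps 2 of the 10 genes rose at least 2-fold over Cre-/mdx with an unadjusted p under 0.05 in limma, and 0 fell. These were Mymk, which rose 5.3-fold, and Chrna1, which rose 2.82-fold. Over all 65672 transcript clusters the same rule called 0.376% in either direction and 0.234% higher. Of the 10 differences 9 were positive, beside 48.6% of all clusters, and their median was 0.61 on the log2 scale, beside 0.0 for all clusters. The LysM-MRcko/mdx mean was the highest of the 3 groups in 9 genes and the lowest in Myf6. In MCK-MRcko/mdx quadriceps 0 of the 10 genes were called against Cre-/mdx, beside 0.321% of all clusters. There 5 differences were positive, beside 48.7% of all clusters, and 5 negative, with a median of 0.07. The groups overlapped in all 10 genes, and over all clusters 6.2% did not overlap. At an adjusted p under 0.05, 0 members and 0.0% of all clusters passed in each of the 3 comparisons. At an unadjusted p under 0.05 alone 4 members passed in LysM-MRcko/mdx against Cre-/mdx, beside 6.2% of all clusters, 0 in MCK-MRcko/mdx, beside 5.54%, and 4 between the knockouts, beside 7.12%.

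**Figure D1:**
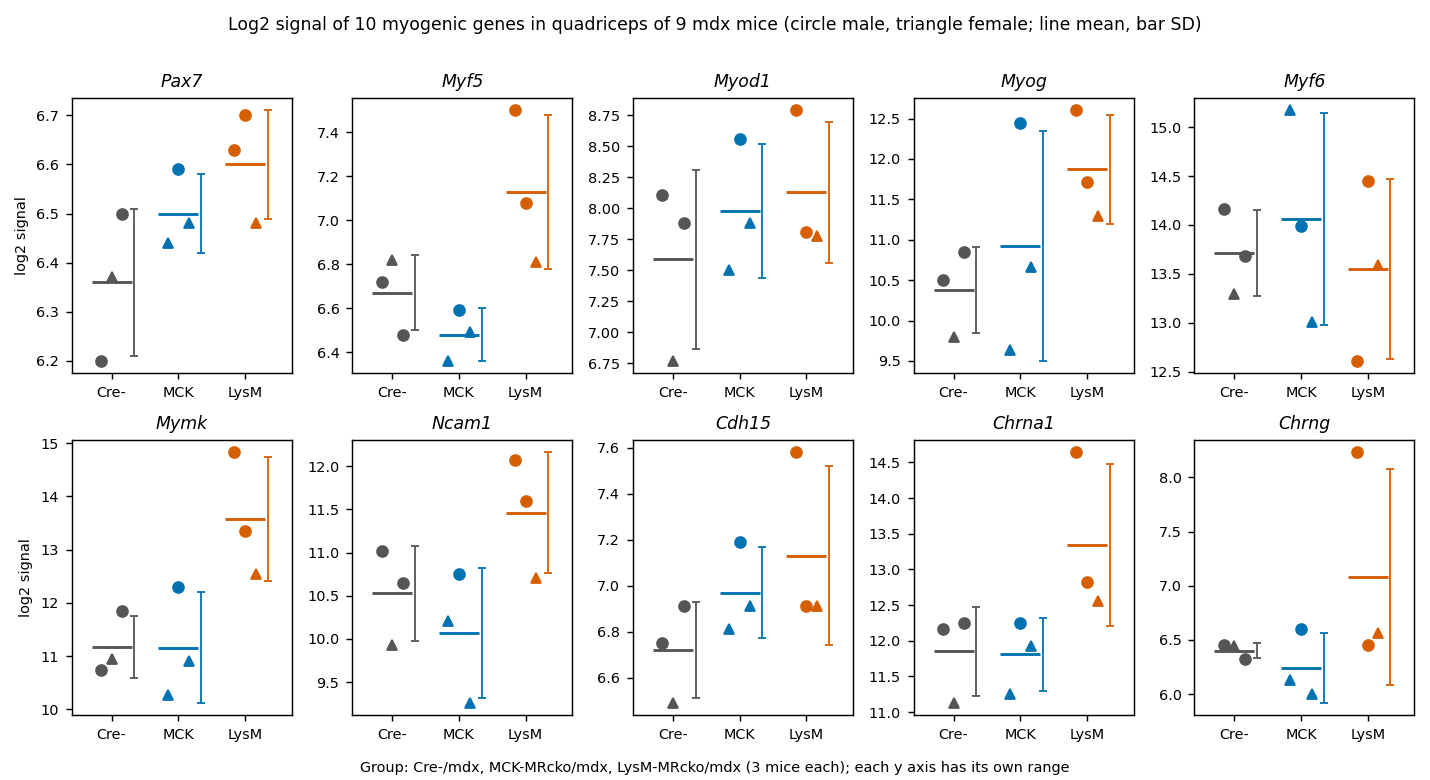
Log2 signal of each of the 10 genes (y axis, with its own range per gene) in the 3 Cre-/mdx, 3 MCK-MRcko/mdx and 3 LysM-MRcko/mdx mice (x axis). Circles are males, triangles are females, lines are group means and bars are SD. For Mymk and Chrna1 all 3 LysM-MRcko/mdx mice sit above the other 6 mice.

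Mymk encodes myomaker, which is required for myoblasts to fuse. The group means were 11.17 ± 0.59 in Cre-/mdx, 11.16 ± 1.04 in MCK-MRcko/mdx and 13.58 ± 1.16 in LysM-MRcko/mdx (SD, n = 3). Its log2 signal was 10.73, 10.94 and 11.84 in Cre-/mdx, 10.27, 12.30 and 10.90 in MCK-MRcko/mdx, and 14.83, 13.35 and 12.55 in LysM-MRcko/mdx. All 3 LysM-MRcko/mdx mice lay above all 6 others, while the control and MCK-MRcko/mdx mice overlapped. LysM-MRcko/mdx exceeded Cre-/mdx by 2.41 ± 0.73 (SE; 95% interval 0.69 to 4.12; adjusted p = 0.78 in limma). MCK-MRcko/mdx differed from Cre-/mdx by -0.01, with an interval of -1.73 to 1.70, so that a 2-fold change in either direction is not excluded. The difference between LysM-MRcko/mdx and Cre-/mdx stayed above 2-fold with p under 0.05 in 9 of 9 fits with 1 array left out, and it was 1.78 without LysM-MRcko/mdx replicate 1. The study listed Mymk, under its older symbol Tmem8c, from these same mice, so that these values are not independent evidence of its direction.

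Myog encodes myogenin, the regulator of terminal differentiation. Its log2 signal was 10.5, 9.8 and 10.85 in Cre-/mdx, 9.64, 12.45 and 10.66 in MCK-MRcko/mdx, and 12.60, 11.71 and 11.29 in LysM-MRcko/mdx. The LysM-MRcko/mdx mice did not overlap the controls, but MCK-MRcko/mdx replicate 2 stood between their 2 highest values. The difference between LysM-MRcko/mdx and Cre-/mdx was 1.48 ± 0.72 (SE; interval -0.23 to 3.20; adjusted p = 0.79 in limma), and it missed the unadjusted threshold. It passed when sex was a covariate (1.48, adjusted p = 0.77), when only the 6 arrays of the comparison were fitted, in a plain equal-variance test, and when MCK-MRcko/mdx replicate 1 or 2 was left out of the shared spread. The spread within MCK-MRcko/mdx was wide (SD 1.42, n = 3), and MCK-MRcko/mdx differed from Cre-/mdx by 0.53, or -0.23 without its replicate 2.

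The earlier regulators showed smaller differences, at lower signals than Mymk or Myog. Pax7 and Myf5, like Cdh15 and Chrng below, lay mostly near the upper quartile of all clusters (6.51 to 6.63 by array). Whether so dim a signal can register a change was not tested. Pax7, the transcription factor of satellite cells, had values of 6.20, 6.37 and 6.50 in Cre-/mdx, 6.44, 6.59 and 6.48 in MCK-MRcko/mdx, and 6.63, 6.70 and 6.48 in LysM-MRcko/mdx. The 9 values spanned little and the groups overlapped, with a difference of 0.25 for LysM-MRcko/mdx against Cre-/mdx (interval 0.03 to 0.46, exact permutation p = 0.20), short of 2-fold. Myf5, an early determination factor, had values of 6.72, 6.82 and 6.48 in Cre-/mdx, 6.36, 6.59 and 6.49 in MCK-MRcko/mdx, and 7.50, 7.08 and 6.81 in LysM-MRcko/mdx. Its LysM-MRcko/mdx mice lay above every MCK-MRcko/mdx mouse (difference 0.65 ± 0.18 SE, interval 0.23 to 1.07, adjusted p = 0.60 in limma), but overlapped the controls (difference 0.46, interval 0.03 to 0.88). Myod1, which with Myf5 commits cells to the muscle lineage, had values of 8.11, 6.77 and 7.88 in Cre-/mdx, 7.50, 8.56 and 7.88 in MCK-MRcko/mdx, and 8.79, 7.81 and 7.78 in LysM-MRcko/mdx. All of its groups overlapped, and its difference for LysM-MRcko/mdx against Cre-/mdx was 0.54 (interval -0.56 to 1.64).

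Myf6, the regulator that stays expressed in mature fibers, did not follow the others. Its log2 signal was 14.16, 13.29 and 13.68 in Cre-/mdx, 15.17, 13.99 and 13.01 in MCK-MRcko/mdx, and 12.61, 14.45 and 13.59 in LysM-MRcko/mdx. The groups overlapped throughout, and the mouse with the lowest Myf6 value was LysM-MRcko/mdx replicate 1, which had the highest value of all 9 mice in 8 of the other genes. The difference between LysM-MRcko/mdx and Cre-/mdx was -0.16 (interval -1.69 to 1.37), and it was 0.31 without that mouse.

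Ncam1 encodes the neural cell adhesion molecule, present on satellite cells, on young or denervated fibers and on nerve. Its values were 11.02, 9.93 and 10.65 in Cre-/mdx, 10.21, 10.75 and 9.26 in MCK-MRcko/mdx, and 12.07, 11.60 and 10.70 in LysM-MRcko/mdx. The LysM-MRcko/mdx mouse with 10.70 lay within the range of both other groups. Ncam1 was higher in LysM-MRcko/mdx than in MCK-MRcko/mdx by 1.38 ± 0.51 (SE; interval 0.18 to 2.59; adjusted p = 0.67 in limma), and this call held in 5 of 9 fits with 1 array left out. It was lost without replicate 1 or 3 of MCK-MRcko/mdx (1.45 and 0.98) and without replicate 1 or 2 of LysM-MRcko/mdx (1.08 and 1.31). Against Cre-/mdx the difference was 0.92 (interval -0.28 to 2.13). The study listed Ncam1 from these mice too, in a set of myofibroblast signature genes selected for being higher in LysM-MRcko/mdx. It listed Ncam1 as higher than in MCK-MRcko/mdx and marked no 2-fold change against Cre-/mdx. Cdh15 encodes M-cadherin, an adhesion protein of satellite cells and myoblasts, and its values were 6.75, 6.49 and 6.91 in Cre-/mdx, 6.81, 7.19 and 6.91 in MCK-MRcko/mdx, and 7.58, 6.91 and 6.91 in LysM-MRcko/mdx. The value 6.91 occurred on 4 of the 9 arrays, and only LysM-MRcko/mdx replicate 1 stood clear of the rest (difference from Cre-/mdx 0.42, interval -0.09 to 0.92).

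Chrna1 encodes the ligand-binding alpha subunit of the muscle acetylcholine receptor, and Chrng the gamma subunit of the fetal receptor. Chrna1 values were 12.16, 11.13 and 12.25 in Cre-/mdx, 11.25, 12.25 and 11.93 in MCK-MRcko/mdx, and 14.64, 12.83 and 12.56 in LysM-MRcko/mdx. All 3 LysM-MRcko/mdx mice lay above the other 6, although 2 of them by less than 1 on the log2 scale. The difference from Cre-/mdx was 1.5 ± 0.61 (SE; interval 0.06 to 2.93; adjusted p = 0.78 in limma), and that from MCK-MRcko/mdx was 1.53 (interval 0.10 to 2.97; adjusted p = 0.69). The call against Cre-/mdx held in 2 of 9 fits with 1 array left out, those without LysM-MRcko/mdx replicate 2 or 3, and the difference was 0.85 without LysM-MRcko/mdx replicate 1. Chrng values were 6.45, 6.44 and 6.32 in Cre-/mdx, 6.13, 6.60 and 6.0 in MCK-MRcko/mdx, and 8.23, 6.45 and 6.56 in LysM-MRcko/mdx. Only LysM-MRcko/mdx replicate 1 was high, and the difference from Cre-/mdx went from 0.68 (interval -0.41 to 1.76) to 0.10 without it. The adult subunit of the receptor that replaces Chrng is encoded by Chrne, and its value was 7.89, 7.44 and 8.25 in Cre-/mdx, 7.35, 7.34 and 7.38 in MCK-MRcko/mdx, and 7.46, 7.46 and 7.43 in LysM-MRcko/mdx. All 3 MCK-MRcko/mdx values of Chrne were below the control values (difference -0.50, interval -0.93 to -0.08), short of 2-fold.

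**Figure D2:**
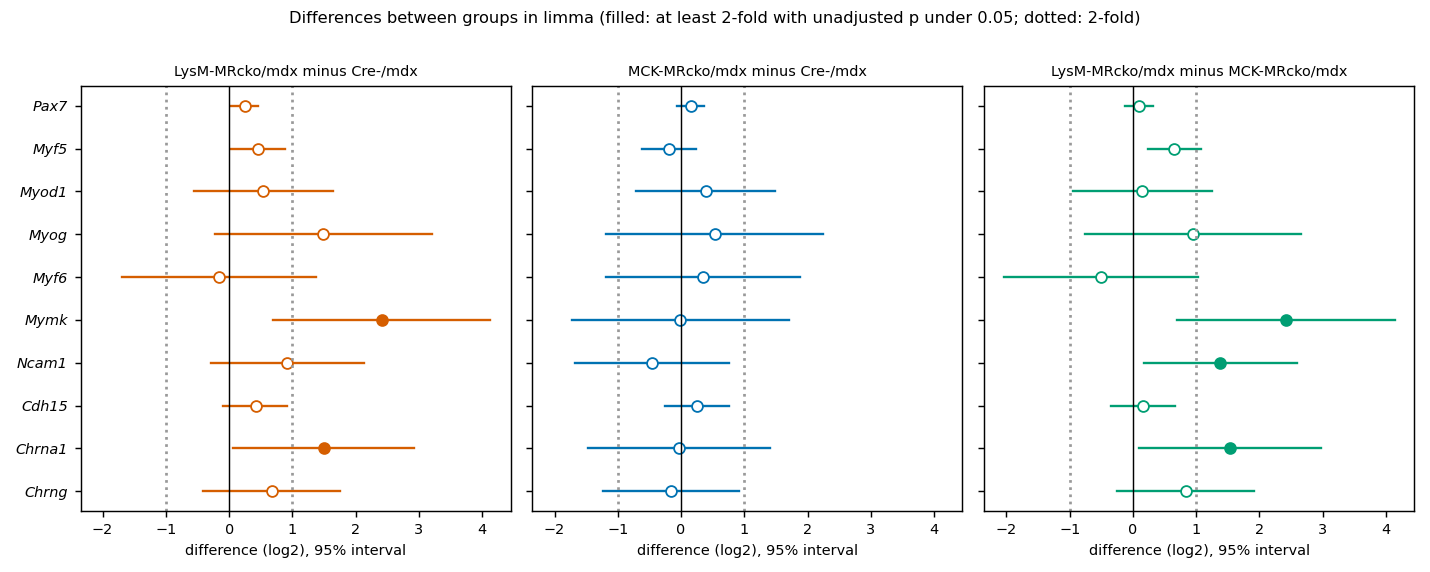
Differences in log2 signal (x axis) with 95% intervals for each of the 10 genes (y axis) in the 3 comparisons, from limma. Filled points were called (at least 2-fold with an unadjusted p under 0.05): Mymk and Chrna1 against Cre-/mdx, and Mymk, Ncam1 and Chrna1 against MCK-MRcko/mdx, with 0 in MCK-MRcko/mdx against Cre-/mdx.

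Between the knockouts, 3 of the 10 genes were called, all higher in LysM-MRcko/mdx, beside 0.429% of all clusters in either direction and 0.204% higher. They were Mymk (2.42), Ncam1 (1.38) and Chrna1 (1.53), and the median over the 10 genes was 0.74, with 9 differences positive beside 48.1% of all clusters. Groups that did not overlap were found for Myf5, Mymk and Chrna1, beside 3.72% of all clusters higher. Against Cre-/mdx, the genes whose LysM-MRcko/mdx mice did not overlap the controls were Myog, Mymk and Chrna1, beside 3.29% of all clusters higher. The comparisons share mice, so that the agreement of their directions adds no separate evidence. The exact two-sided permutation p could not go below 0.10 with 3 mice against 3, and it was 0.10 for Mymk, Myog and Chrna1 against Cre-/mdx.

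The members did not differ evenly among the LysM-MRcko/mdx mice. The median difference from the Cre-/mdx mean over the 10 genes was 1.37 in replicate 1, 0.57 in replicate 2 and 0.18 in replicate 3. The corresponding medians were 0.08, -0.33 and 0.17 in Cre-/mdx and -0.29, 0.34 and -0.05 in MCK-MRcko/mdx. LysM-MRcko/mdx replicate 1 had the highest median of all 9 mice. Without it, 1 of 10 genes, Mymk, was called in LysM-MRcko/mdx against Cre-/mdx, beside 0.206% of all clusters. Then 10 of 10 differences were positive, and their median was 0.29, beside 0.0 for all clusters. With all 9 mice, 48.6% of all clusters had a positive difference. Between the knockouts, 7 of 10 differences were positive without this mouse, where 9 were positive with it. The median there was 0.36 without it and 0.74 with it.

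**Figure D3:**
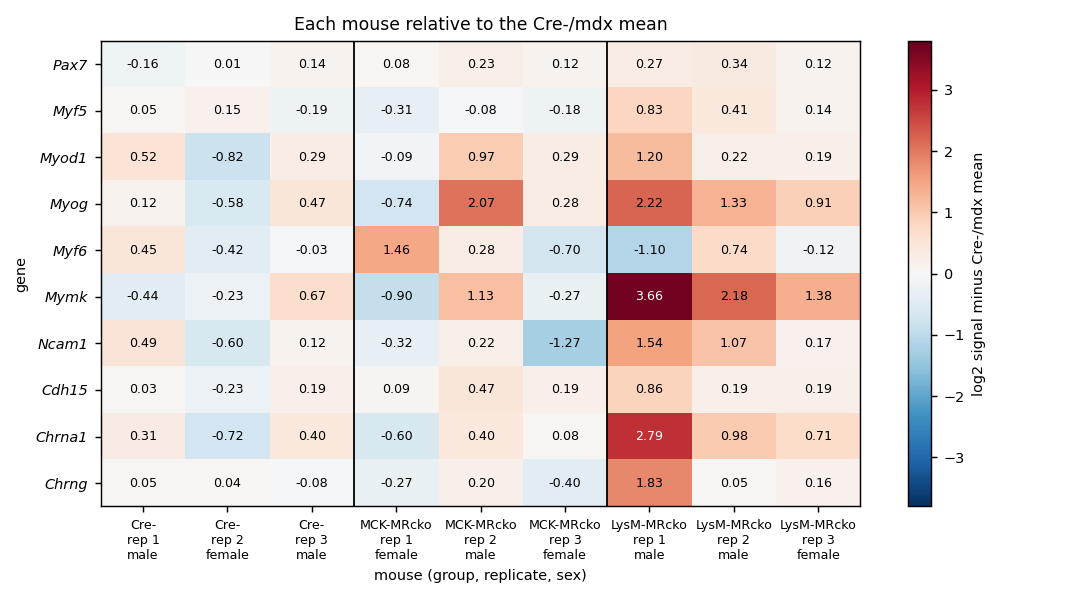
Difference of each mouse's log2 signal from the Cre-/mdx mean (color and printed value) for the 10 genes (rows) in the 9 mice (columns, with sex). The column of LysM-MRcko/mdx replicate 1 holds the highest value of 8 genes and the lowest of Myf6, and its Mymk value is 3.66 above the control mean.

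There were 5 males and 4 females, and the males were higher for several of these genes. Cre-/mdx and LysM-MRcko/mdx each had 2 males and 1 female, whereas MCK-MRcko/mdx had 1 male and 2 females. In Myod1, Myog, Ncam1 and Chrna1 every male was above every female in 3 of 3 groups, beside 2.76% of all clusters. In a fit with group and sex, males exceeded females by 1.35 ± 0.40 for Myog, 1.02 ± 0.23 for Ncam1 and 1.20 ± 0.47 for Mymk (SE; adjusted p = 0.87 for each in limma). These 3 of 10 members passed the 2-fold and unadjusted p rule, all higher in males, beside 0.105% of all clusters higher and 0.175% in either direction. Myod1 differed by 0.87 ± 0.25 (SE), short of 2-fold. All 10 sex differences were positive, beside 51.3% of all clusters, but the members vary together over the mice and are not separate evidence. Within males the Mymk difference of LysM-MRcko/mdx from Cre-/mdx was 2.80 (2 mice each) and within females 1.61 (1 mouse each). The Myog difference was 1.48 in males and 1.49 in females, and the Chrna1 difference 1.53 and 1.43. MCK-MRcko/mdx was the group with more females than males, and within males its 1 mouse exceeded the 2 controls by 1.77 for Myog and 1.02 for Mymk, while its 2 females differed from the 1 control female by 0.35 and -0.35. These sex comparisons were made after the values were seen. With sex as a covariate, the LysM-MRcko/mdx minus Cre-/mdx difference was still 2.41 for Mymk, 1.48 for Myog and 1.5 for Chrna1. The covariate could not move it, since these groups had the same numbers of each sex. Beyond these fits the part of sex in the group differences was not tested.

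**Figure D4:**
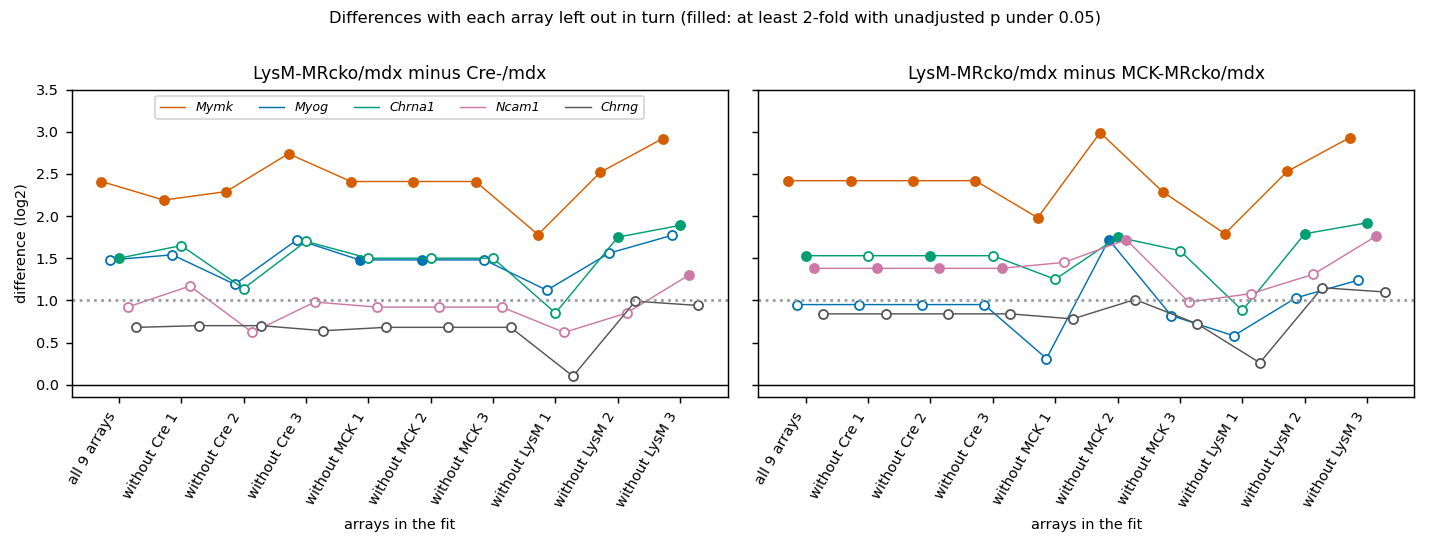
Difference in log2 signal (y axis) of Mymk, Myog, Chrna1, Ncam1 and Chrng with all 9 arrays and with each array left out in turn (x axis), for LysM-MRcko/mdx against Cre-/mdx and against MCK-MRcko/mdx. Filled points were called; Mymk is filled throughout and its lowest value against Cre-/mdx, 1.78, is without LysM-MRcko/mdx replicate 1.

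Other genes of the same program were counted by list. The same rule called 0.376% of all clusters in LysM-MRcko/mdx against Cre-/mdx, 0.321% in MCK-MRcko/mdx and 0.429% between the knockouts. Of 17 satellite cell and Notch genes, 19 cofactors and inhibitors of the myogenic regulators, 18 other fusion genes and 14 other acetylcholine receptor and neuromuscular junction genes, 0 were called in any of the 3 comparisons. Their median differences for LysM-MRcko/mdx against Cre-/mdx were 0.02, -0.05, 0.09 and 0.05. Mymx, which encodes myomerger, the partner of myomaker in fusion, had values of 6.32, 6.27 and 6.80 in Cre-/mdx, 6.32, 6.37 and 6.20 in MCK-MRcko/mdx, and 6.72, 6.72 and 6.14 in LysM-MRcko/mdx. Its groups overlapped, and its difference for LysM-MRcko/mdx was 0.06 (interval -0.41 to 0.53), where Mymk differed by 2.41. Mymx was far dimmer than Mymk and lay near the upper quartile of all clusters (6.51 to 6.63 by array). Whether so dim a signal can register a change was not tested, nor was whether the 2 genes differed from each other. Myof, which encodes myoferlin of myoblast membranes, lay above the controls in all 3 mice of both knockouts, by 0.97 in LysM-MRcko/mdx (interval 0.35 to 1.6) and 0.87 in MCK-MRcko/mdx (interval 0.25 to 1.5), short of 2-fold. Id2, an inhibitor of the regulators' partners, lay above the controls in all 3 mice of both knockouts too, by 0.72 (interval -0.09 to 1.52) and 0.94 (interval 0.13 to 1.74). Vgll2, a TEAD cofactor of muscle, was below the controls in all 3 MCK-MRcko/mdx mice (difference -0.72, interval -1.05 to -0.39, adjusted p = 0.84 in limma). Chrnb1, the beta subunit of the receptor, differed by -0.76 in MCK-MRcko/mdx (interval -1.57 to 0.05).

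Some sarcomere genes of young fibers rose in LysM-MRcko/mdx, as Mymk and Chrna1 did. Of 8 embryonic sarcomere genes 3 were called in LysM-MRcko/mdx against Cre-/mdx, 0 in MCK-MRcko/mdx, and 3 between the knockouts, all higher in LysM-MRcko/mdx. The same rule called 0.376%, 0.321% and 0.429% of all clusters in these comparisons. Their median difference was 0.80 against Cre-/mdx and 0.95 against MCK-MRcko/mdx. Myh3, embryonic myosin heavy chain, had values of 12.78, 12.04 and 12.73 in Cre-/mdx, 12.29, 12.56 and 12.37 in MCK-MRcko/mdx, and 15.84, 13.83 and 13.39 in LysM-MRcko/mdx (difference from Cre-/mdx 1.84 ± 0.60 SE). All 3 LysM-MRcko/mdx mice lay above the other 6. Tnnt2, cardiac troponin T of embryonic muscle, differed by 1.71 ± 0.55 and Tnni1, slow troponin I, by 1.57 ± 0.42 (SE; adjusted p = 0.78 for all 3 genes in limma). The study listed Tnnt2 and Tnni1 from these same mice, so that their direction is not independent evidence. Without LysM-MRcko/mdx replicate 1, 3 of the 8 genes were still called and the median was 0.70. Of 11 proliferation genes 0 were called in LysM-MRcko/mdx, beside 0.376% of all clusters. In MCK-MRcko/mdx 4 of 11 were called higher (Mki67, Top2a, Ccna2 and Kif11), where 0.321% of all clusters were called in either direction. All 11 differences were positive in both knockouts, beside 48.6% of all clusters in LysM-MRcko/mdx and 48.7% in MCK-MRcko/mdx. Their medians were 0.36 in LysM-MRcko/mdx, or 0.11 without its replicate 1, and 0.61 in MCK-MRcko/mdx. Between the knockouts 1 of the 11 differences was positive, with a median of -0.44. LysM-MRcko/mdx replicate 1 had the highest list median of all 9 mice (0.97).

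**Figure D5:**
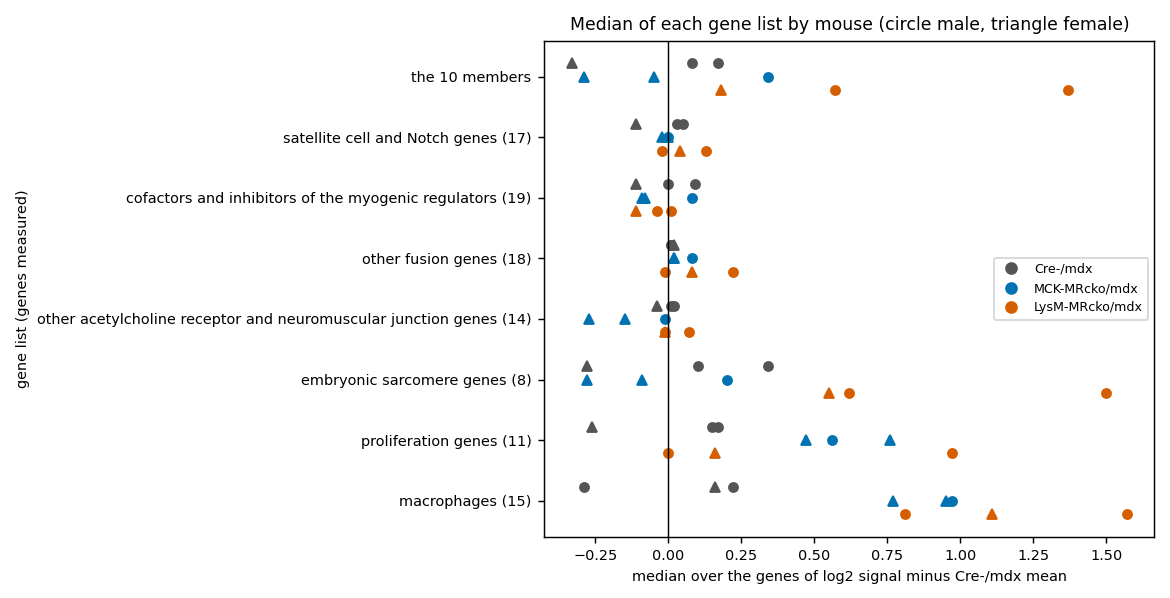
Median over the genes of a list of log2 signal minus the Cre-/mdx mean (x axis), for the 10 members, 6 pathway lists and the macrophage markers (y axis), in each mouse (points; circles male, triangles female). For the 10 members the LysM-MRcko/mdx values are 1.37, 0.57 and 0.18, and for the macrophage markers all 6 knockout mice lie above all 3 controls.

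Cell type markers moved in part with these genes. In bulk muscle, more cells of a type and more RNA per cell cannot be told apart. Over all clusters, 0.376% were called in LysM-MRcko/mdx against Cre-/mdx, 0.321% in MCK-MRcko/mdx and 0.429% between the knockouts. These shares stand beside each count of markers below. Of 15 macrophage markers 9 were called higher in LysM-MRcko/mdx and 6 in MCK-MRcko/mdx, with medians of 1.18 and 0.83. The study listed Adgre1, Itgam and Ctss among these from the same mice, so that their direction is not independent evidence. The summed signal of the 15 markers was 17.63 to 18.59 in Cre-/mdx, 19.04 to 19.38 in MCK-MRcko/mdx and 18.65 to 19.38 in LysM-MRcko/mdx, on the log2 scale. Every knockout mouse was above every control. Between the knockouts 1 marker was called higher in LysM-MRcko/mdx and 2 lower. Lyz2, the lysozyme M gene that drives LysM-Cre, was 1 of the lower ones (-1.05). It is a bright part of the sum, so the sum does not compare the knockouts evenly. Whether the Cre allele lowers Lyz2 was not tested. Of 9 Schwann cell and nerve markers, which bear on Ncam1, 0 were called in any comparison. Their summed signal was 12.85 to 13.39 in Cre-/mdx, 12.74 to 12.91 in MCK-MRcko/mdx and 13.09 to 13.55 in LysM-MRcko/mdx. This sum was mostly 1 gene, Pmp22 (13.34, 12.77 and 12.82 in Cre-/mdx), and says little of the other markers. Between the knockouts, where Ncam1 was called, Pmp22 was higher in LysM-MRcko/mdx without overlap (difference 0.51, interval 0.08 to 0.93), short of 2-fold. There 4 of the 9 differences were positive. Of 10 fibroblast markers 1 was called in LysM-MRcko/mdx, Postn (1.89), which the study also listed from these mice. Of 8 smooth muscle and pericyte markers 1 was called there, Acta2 (1.22), which developing skeletal muscle also expresses, while Rgs5 lay below the controls in 3 of 3 mice (difference -0.94). In MCK-MRcko/mdx Rgs5 was called lower (-1.02), and 0 of the 8 differences were positive. Between the knockouts 2 of the 8 were called higher in LysM-MRcko/mdx, Acta2 (1.74) and Pdgfrb (1.07). All 8 differences were positive there, beside 48.1% of all clusters. Of 9 endothelial markers 0 were called in LysM-MRcko/mdx and 1, Cdh5, was lower in MCK-MRcko/mdx (difference -1.13). In MCK-MRcko/mdx 0 of the 9 endothelial differences were positive, beside 48.7% of all clusters. Between the knockouts all 9 were positive, beside 48.1%, and 0 were called. Of 9 T and NK cell markers 0 were called in either knockout. Of 12 mature fiber markers 0 were called, and their summed signal lay between 23.20 and 23.30 in all groups. This sum could hardly move, since 8 of the 12 had a single value on at least 8 of the 9 arrays and lay on all arrays between 19.37 and the top of the scale at 19.93. Myh2, a fast myosin below that top, differed by -0.75 in LysM-MRcko/mdx (interval -1.5 to 0.01) and by -0.76 in MCK-MRcko/mdx (interval -1.51 to -0.01), short of 2-fold. The part of these cells in the result was not tested.

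Across the 9 mice, the log2 values of Mymk were closest to those of Cd276 (Pearson r = 0.98), Gm5424 (0.97), Ifi30 (0.97), Tnnt2 (0.97) and Tbc1d8 (0.96), among 17630 genes above the median signal. Those of Myog were closest to Mpv17l2 (0.94), Tssc4 (0.93), Iqsec3 (0.93), Mest (0.92) and Ier5l (0.91). Those of Ncam1 were closest to Gm23741 (0.95), Cxcl14 (0.94), Ranbp10 (0.94), Gm23852 (0.94) and Mtss2 (0.94). These are descriptions over 9 arrays, which hold the group differences and LysM-MRcko/mdx replicate 1. Within the members, Myog and Mymk had r = 0.87, and 0.82 without that mouse. Mymk and Chrna1 had r = 0.92, and 0.84 without it. Myf6 had r = -0.43 with Mymk, and -0.04 without it.

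The data of the whole series bear on these values as follows. Array medians lay between 4.70 and 4.78. Nr3c2, which encodes MR, was below the controls in all 3 MCK-MRcko/mdx mice (difference -0.22, adjusted p = 0.84 in limma), and differed by -0.11 in LysM-MRcko/mdx, where the groups overlapped. The Nr3c2 means were 7.02 in Cre-/mdx, 6.81 in MCK-MRcko/mdx and 6.91 in LysM-MRcko/mdx. These lay not far above the upper quartile of all clusters (6.51 to 6.63 by array). A gene-level value from whole muscle includes cells in which MR was not deleted. Neither the part of such cells nor that of the dim signal in the size of these differences was tested. Among clusters above the median signal, 47.1% had a value that occurred on 3 or more arrays exactly, and 6.79% had the same value in all 3 Cre-/mdx mice, as Chrnd (7.86) did. An SD of 0 in such a gene does not show that its mice were without spread.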

How the data were processed

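Quadriceps RNA from 9 mice was hybridised to Clariom D arrays, and the deposited values are log2 signals. The authors obtained them with SST-RMA at the gene level, run in Expression Console, and compared groups in Transcriptome Analysis Console. Versions of these programs are not given in the sources used here. The file held 65672 clusters in 9 columns. Gene symbols came from the platform's probe table, which gave 1 symbol for 30450 clusters, several for 2151 and none for 33071. Sequences came from RefSeq tables of GRCm38.p6, and array coordinates were not used because their build is not stated.

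All tests used limma 3.58.1 in R 4.3.3, with 1 mean per group over all 9 arrays, and no normalization or filter was added. Called means changed 2-fold or more with p under 0.05 before adjustment. The Benjamini-Hochberg adjustment ran over all clusters. Exact permutation p-values used all 20 splits. The code was tested on simulated data. The members and lists were chosen with earlier results of these data known, and the genes named are the members, Nr3c2, and from each list the called genes and those with the largest differences, and the genes most like Mymk, Myog and Ncam1, with Mymx and Chrnd added after their values were seen. The alternatives were a fit on the 6 arrays of a comparison, a plain equal-variance test, sex as a covariate, a block for the replicate number, array weights, trended and robust eBayes, median centring, quantile normalization, a filter on dim clusters, 1 cluster per gene, and leaving out each array. Depth has no meaning for arrays, and their number limits the precision. Mice are labelled as biological replicates.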

Additional observations from a re-analysis of the deposited data

Results flagged for a closer look

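In the direct comparison of the knockouts, 3 of the 10 genes were called at an unadjusted p under 0.05 in limma, all higher in LysM-MRcko/mdx. Over all clusters 0.429% were called in either direction and 0.204% higher. The exact permutation p was 0.10 for Mymk and Chrna1 and 0.20 for Ncam1. Mymk was higher in LysM-MRcko/mdx than in MCK-MRcko/mdx by 2.42 on the log2 scale (interval 0.70 to 4.14, adjusted p = 0.62 in limma), with 3 of 3 LysM-MRcko/mdx mice above every MCK-MRcko/mdx mouse. Chrna1 was higher by 1.53 (interval 0.10 to 2.97, adjusted p = 0.69 in limma), again in 3 of 3 mice. Ncam1 was higher by 1.38 (interval 0.18 to 2.59, adjusted p = 0.67 in limma), in 2 of 3 mice. Without LysM-MRcko/mdx replicate 1 the differences were 1.79, 0.88 and 1.08, and only Mymk was called, beside 0.469% of all clusters.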

How the results depend on the processing

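With the replicate number as a block, 1 member was called in LysM-MRcko/mdx against Cre-/mdx, where 2 were called without it, and 2 between the knockouts, where 3 were called. Chrna1 was the call lost in both, and over all clusters 0.349% and 0.404% were called with the block. The numbers did not pair the mice, since correlations of same-numbered mice ranged from -0.29 to 0.21. With array weights 1 member was called in LysM-MRcko/mdx against Cre-/mdx, beside 0.381% of all clusters. Between the knockouts 1 was called on the 6 arrays of the comparison, beside 0.431% of all clusters. With a plain equal-variance test 0 were called, beside 0.34%, and the adjusted p of Mymk in that test was 0.76. With each array left out, 1 to 3 members were called in LysM-MRcko/mdx against Cre-/mdx, beside 0.206% to 0.853% of all clusters. Between the knockouts 1 to 4 were called, beside 0.356% to 0.754%. The count for MCK-MRcko/mdx against Cre-/mdx was 0 in all settings, beside 0.174% to 0.845% of all clusters.

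With sex as a covariate the MCK-MRcko/mdx minus Cre-/mdx difference became 0.39 for Mymk and 0.29 for Chrna1, and the LysM-MRcko/mdx minus MCK-MRcko/mdx difference of Myod1 became -0.14. With each array left out, uncalled differences changed sign. For MCK-MRcko/mdx against Cre-/mdx these ranged from -0.02 to 0.66 for Myod1, -0.23 to 1.17 for Myog, -0.21 to 0.87 for Myf6, -0.58 to 0.43 for Mymk and -0.40 to 0.24 for Chrna1. Myf6 ranged from -0.61 to 0.31 for LysM-MRcko/mdx against Cre-/mdx. Between the knockouts the ranges were -0.18 to 0.44 for Myod1, -1.03 to 0.05 for Myf6 and -0.06 to 0.28 for Cdh15. Over the 10 members, 3 comparisons and all settings, 519 differences kept their direction and side of the threshold, 26 lost a call, 7 gained one and 18 changed sign. The 519 was in part fixed in advance. Settings such as the plain equal-variance test, or leaving out an array of the group not compared, cannot change the difference itself. Many of the differences were also far from being called. The causes were not tested. Another cluster of the same gene could not be tried, since each member had 1.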
